A study of Homo sapiens with 6 samples.

Results

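Occupancy of MYT1L was examined at 9 genes of the basic helix-loop-helix (bHLH) family: the neurogenins NEUROG1 and NEUROG2, the NeuroD genes NEUROD1, NEUROD2, NEUROD4 and NEUROD6, the atonal homologue ATOH1, and the oligodendrocyte lineage genes OLIG1 and OLIG2. The genes were chosen by name, out of 20033 protein-coding genes on chromosomes 1 to 22, X and Y, and a peak was assigned to a gene when it overlapped the gene body or the 5 kb on either side by at least 1 bp. The data are peak lists from CUT&RUN, in which an antibody tethers a nuclease to a chromatin protein and the DNA cut loose is sequenced. All 6 libraries came from wild-type (WT) cells of H1, a human embryonic stem cell line, at day 30 (D30). Apart from replicate number, their labels differed in the antibody alone: 4 libraries with MYT1L antibody and 2 with IgG, the negative control. Depth differed as well, as given below. The series' text calls the material cortical interneurons made from pluripotent cells, while the sample labels give embryonic stem cells as cell type. Nothing in the labels says that the libraries came from separate cultures, so p-values measure only the spread between these libraries, which may be technical. H1 is a single line, and peak lists hold no expression values, so the identity of the cells could not be checked against marker expression.

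Proneural bHLH proteins switch progenitors of the nervous system towards neurons. They pair with E-proteins such as TCF3, TCF4 and TCF12, bind E-box sequences (CANNTG) and induce Notch ligands, and their activity is held back by ID proteins and by Notch effectors. NEUROG1 and NEUROG2 act in dorsal forebrain and sensory progenitors, and the NeuroD genes follow them in differentiating, mostly excitatory, neurons. ATOH1 specifies cerebellar granule cells and inner-ear hair cells, while OLIG1 and OLIG2 serve ventral progenitors and the oligodendrocyte lineage. MYT1L is a zinc-finger protein of neurons, and the zinc fingers of its family bind a core of the letters AAGTT.

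Peaks of at least 1 MYT1L library were found at 8 of the 9 genes (84.1% of all protein-coding genes had such a peak), with NEUROD4 the exception. Peaks of different MYT1L libraries that overlap were joined into regions, and a region was called reproducible when it held peaks of at least 3 of the 4 libraries; this was met at OLIG1 alone, 1 of 9 genes, against 50.3% of all protein-coding genes. Peaks of at least 2 MYT1L libraries were present at 6 genes (72.2% of all protein-coding genes) and of at least 3 at 3 genes (56.8%), wherever they lay in the window. Regions with peaks of at least 2 MYT1L libraries were present at 6 of the 9 genes and held 16 of the 22 MYT1L peaks; 67.3% of all protein-coding genes had such a region. The count of 1 gene thus holds for the requirement of 3 libraries. Short genes offer less sequence for a peak, and the longest of the 9, NEUROD1, spans 12223 bp. Among the 6568 protein-coding genes no longer than that, 33.3% had a reproducible region, 70.8% a peak of at least 1 MYT1L library, 54.4% of at least 2 and 37.3% of at least 3. A region with peaks of at least 2 MYT1L libraries was present at 50.2% of them. The 9 genes had peaks in a median of 2 MYT1L libraries, against 3 over all protein-coding genes and 2 over the short ones.

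The sequences before the transcript start are shown for 4 transcripts at these genes. NEUROG1 was the single one of the 7 genes found in the RefSeq promoter table (GRCh38.p14) with a MYT1L peak in the 250 bases before its start. The share of all promoters with such a peak is not given, so 1 of 7 cannot be called low or high. The capitals in NEUROG1 (chr5:135535965-135536214, minus strand) mark the 108 bases between the summits of the peaks of MYT1L replicates 1 and 3, both of which cover all 250 bases. NEUROG2-AS1 (chr4:112515129-112515378, plus strand) is an antisense transcript that starts inside NEUROG2, and its capitals mark the 40 bases that 2 MYT1L peaks and 1 IgG peak had in common. ATOH1 (chr4:93828503-93828752, plus strand) was the gene with peaks in all 4 MYT1L libraries, and NEUROD4 (chr12:55019724-55019973, plus strand) the gene with none; in both, capitals mark matches to AAGTT on either strand (AAGTT or AACTT) and to the E-box CANNTG, which reads alike on both strands.
NEUROG1: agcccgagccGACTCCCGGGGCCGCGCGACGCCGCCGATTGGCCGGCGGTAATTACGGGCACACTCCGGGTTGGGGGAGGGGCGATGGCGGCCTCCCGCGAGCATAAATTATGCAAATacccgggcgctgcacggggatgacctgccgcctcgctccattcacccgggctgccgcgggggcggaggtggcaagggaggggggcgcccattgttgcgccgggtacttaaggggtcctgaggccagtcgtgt
NEUROG2-AS1: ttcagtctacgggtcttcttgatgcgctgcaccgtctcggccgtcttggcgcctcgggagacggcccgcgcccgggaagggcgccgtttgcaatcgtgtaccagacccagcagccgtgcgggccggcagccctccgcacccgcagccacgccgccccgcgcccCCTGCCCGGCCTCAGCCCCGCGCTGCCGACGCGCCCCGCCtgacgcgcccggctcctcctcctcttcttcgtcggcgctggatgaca
ATOH1: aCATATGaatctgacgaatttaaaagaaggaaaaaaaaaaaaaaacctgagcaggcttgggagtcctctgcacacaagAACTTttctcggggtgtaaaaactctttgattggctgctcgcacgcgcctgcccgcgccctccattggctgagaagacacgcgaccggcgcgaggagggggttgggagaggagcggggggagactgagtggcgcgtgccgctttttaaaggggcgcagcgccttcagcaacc
NEUROD4: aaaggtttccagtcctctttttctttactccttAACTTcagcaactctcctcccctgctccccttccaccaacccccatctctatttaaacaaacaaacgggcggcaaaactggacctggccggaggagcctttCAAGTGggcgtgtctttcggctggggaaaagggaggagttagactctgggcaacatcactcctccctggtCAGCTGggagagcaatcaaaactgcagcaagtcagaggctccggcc

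Neither motif had a match in these 250 bases of NEUROG1 or of NEUROG2-AS1. ATOH1 had 1 AAGTT match and 1 E-box, and NEUROD4 had 1 AAGTT match and 2 E-boxes. Of the other 4 genes in the promoter table, NEUROG2 and NEUROD1 had no match to either motif, and NEUROD2 and NEUROD6 had 3 and 4 E-boxes and no AAGTT match. Over 15842 promoters of protein-coding genes of this length, 26.4% held an AAGTT match and 57.8% an E-box. The gene without a MYT1L peak thus had both motifs and the gene with a covered promoter had neither; a match is a run of letters and was not tested as a binding site.

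**Figure D1:**
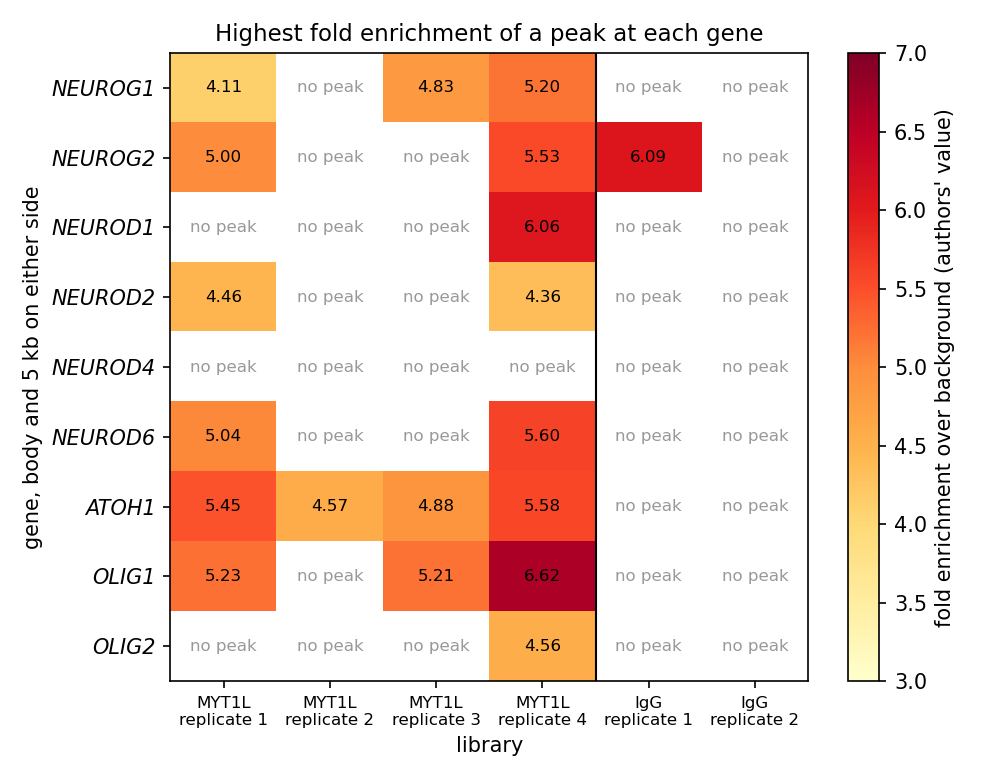
Highest fold enrichment over background of any peak within the gene body or 5 kb of it, by gene (vertical axis) and library (horizontal axis); the colour bar gives the fold and the vertical line divides MYT1L from IgG libraries. MYT1L replicate 4 has a peak at 8 genes and MYT1L replicate 2 at 1, and the single IgG peak lies at NEUROG2.

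The number of genes with a peak differed widely among the MYT1L libraries. It was 6, 1, 3 and 8 of 9 in replicates 1 to 4, a mean of 4.50 ± 3.11 (SD, n = 4). The share of all protein-coding genes with a peak followed the same order, at 68%, 43%, 57.3% and 77.6%, and so did the share of the short genes, at 50.9%, 27.7%, 39.9% and 61.9%. IgG replicate 1 had a peak at 1 of the 9 genes and IgG replicate 2 at 0 (0.50 ± 0.707, SD, n = 2), where 1.61% and 2.9% of all protein-coding genes and 0.974% and 1.77% of the short ones had one. On the genome as a whole the lists held between 12310 and 30086 peaks in MYT1L libraries and 976 and 998 in IgG libraries.

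Depth differed too. The deposited fold and −log10 p of a peak fix the number of fragments piled up at its summit and the background that the peak caller set against them, and the lowest background shared by peaks of a library measures its depth. This genome-wide background was 1.18, 0.421, 1.05 and 0.895 fragments per base in MYT1L replicates 1 to 4, and 0.329 and 0.190 in IgG replicates 1 and 2. When pileup and background of the 22 MYT1L peaks at these genes were thinned to the background of IgG replicate 1, the peaks expected to pass that list's lowest −log10 p numbered 0.674, 0.228, 0.427 and 2.24 in MYT1L replicates 1 to 4, against 1 observed in the control. Over all peaks of these libraries, 20.6%, 74.0%, 25.4% and 45.4% were expected to be kept at that background, and 9.62%, 22.8%, 14.2% and 20.3% of those at the 9 genes. As numbers, 5748, 9105, 4824 and 13650 of all their peaks were expected to be kept, against 976 peaks of IgG replicate 1. At the background of IgG replicate 2 the peaks at the 9 genes numbered 0.254, 0.0701, 0.176 and 0.970, against 0. Over whole lists, 2932, 4669, 2448 and 8179 were expected there, against 998 peaks of IgG replicate 2. The expected share was lower at the 9 genes than over the whole list in each MYT1L library at the background of IgG replicate 1, a difference that was not tested; whether depth accounts for the IgG counts was not tested. Thinned to MYT1L replicate 2, the peaks of MYT1L replicates 1, 3 and 4 were expected to leave 2.14, 1.15 and 4.86, and replicate 2 had 1. Of the peaks of replicates 1, 3 and 4 at the 9 genes 30.5%, 38.4% and 44.2% were expected to be kept, and of all their peaks 38.4%, 46.1% and 64.1%.

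**Figure D2:**
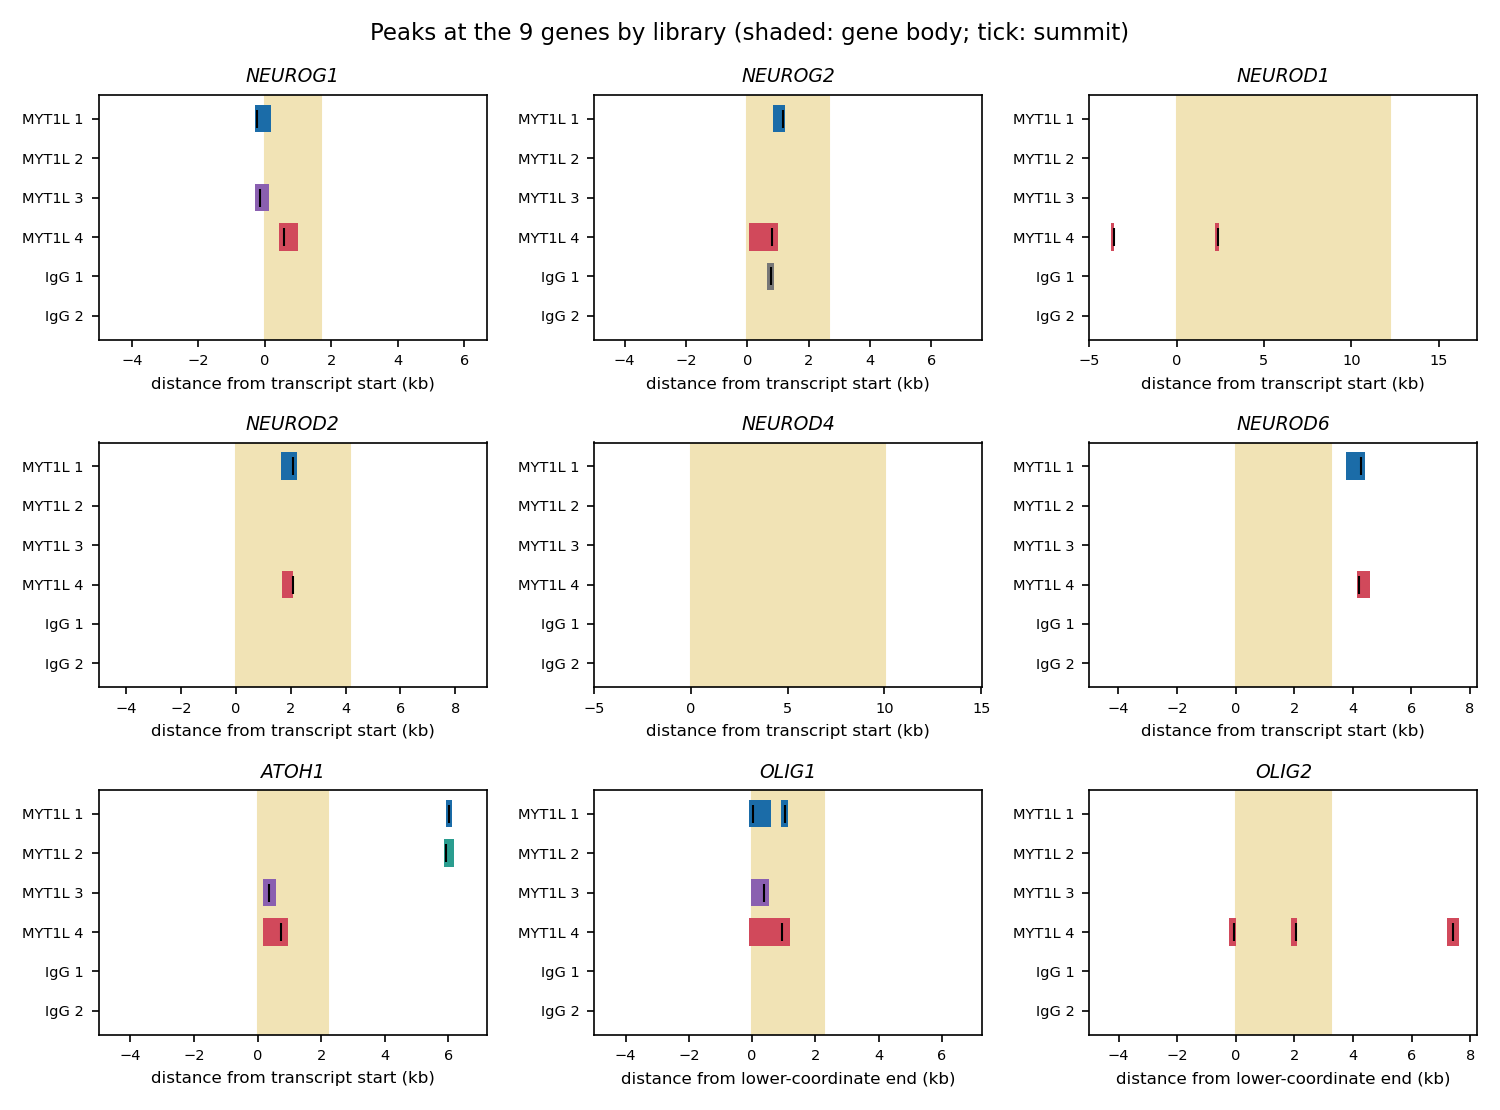
Peaks of the 6 libraries (rows in each panel) along each gene and 5 kb on either side; coloured bars are peaks, black ticks summits and the shaded band the gene body, with distance in kb from the transcript start, or from the lower-coordinate end for OLIG1 and OLIG2. Peaks of 3 libraries overlap at OLIG1, peaks of ATOH1 fall into 2 separate pairs, and the NEUROD4 panel is empty.

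Among the neurogenins, NEUROG1 (chromosome 5, 135534282 to 135535964, minus strand) had a peak in MYT1L replicates 1, 3 and 4 and in no IgG library. The fold was 4.11 in replicate 1, 4.83 in replicate 3 and 5.2 in replicate 4, or 4.71 ± 0.551 (SD, n = 3), on pileups of 11, 10 and 13 fragments. The peaks lay at separate places, which this mean and SD pool. The peaks of replicates 1 and 3 overlapped each other across the transcript start, from 135535763 to 135536264, with summits 240 and 133 bases before it, in the sequence printed above. The peak of replicate 4 lay inside the gene, from 135534978 to 135535532, with its summit 590 bases past the start, and did not touch the other pair. NEUROG1 therefore had peaks in 3 libraries without a reproducible region.

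NEUROG2 (chromosome 4, 112513516 to 112516180, minus strand) was the gene with an IgG peak, as 4.16% of all protein-coding genes and 2.5% of the short ones had one. The fold was 5.0 in MYT1L replicate 1 and 5.53 in MYT1L replicate 4, and 6.09 in IgG replicate 1, the highest of these. Pileups were 12, 15 and 8 fragments over backgrounds of 1.60, 1.89 and 0.478. All lay inside the gene, and the MYT1L region from 112514931 to 112516124 overlapped the IgG peak from 112515292 to 112515549. The summits of MYT1L replicate 4 and IgG replicate 1 were 6 bp apart, and lay 7 and 13 bp past the start of NEUROG2-AS1. The summit of MYT1L replicate 1 was 370 bp from the IgG summit, on the other side of that start. An IgG peak thus overlapped both MYT1L peaks at NEUROG2, with its summit near that of 1 of them, and which of the overlapping transcripts they belong to cannot be told apart.

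The NeuroD genes had 6 MYT1L peaks in all and no IgG peak. NEUROD1 (chromosome 2, 181668295 to 181680517, minus strand), an early differentiation factor, had peaks in MYT1L replicate 4 alone. One lay inside the gene from 181678102 to 181678344, 2345 bases past the start at the summit, with a fold of 6.06 on 13 fragments, and the other 3590 bases before the start with a fold of 4.03 on 10 fragments. NEUROD2 (chromosome 17, 39603768 to 39607920, minus strand), active in cortical excitatory neurons, had a peak inside the gene in replicates 1 and 4. The fold was 4.46 in replicate 1 and 4.36 in replicate 4, or 4.41 ± 0.0743 (SD, n = 2), and the summits were 2 bp apart, the closest match between MYT1L libraries at any of the 9 genes.

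NEUROD6 (chromosome 7, 31337465 to 31340726, minus strand), a marker of pyramidal neurons, had peaks beyond its 3′ end in replicates 1 and 4. They formed a region from 31336136 to 31336943, with summits 1021 and 967 bp past the gene and folds of 5.04 and 5.6 (5.32 ± 0.400, SD, n = 2), each on 10 fragments. The background under the peak of replicate 1 equalled the genome-wide one. NEUROD4 (chromosome 12, 55019974 to 55030017, plus strand) had no peak in any of the 6 libraries; 15.9% of all protein-coding genes and 29.2% of the short ones had no MYT1L peak. The peak nearest to it was 56.7 kb away, in MYT1L replicate 1. No place at a NeuroD gene held peaks of more than 2 libraries.

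ATOH1 (chromosome 4, 93828753 to 93830964, plus strand) was the only one of the 9 genes with a peak in each MYT1L library. The highest fold was 5.45, 4.57, 4.88 and 5.58 in replicates 1 to 4, or 5.12 ± 0.479 (SD, n = 4), and the nearest IgG peak was 327 kb away. With 2 kb or no flank on either side of the gene, 2 MYT1L libraries had a peak. The peaks split by place, so this mean and SD pool separate places. Replicates 3 and 4 had theirs inside the gene, from 93828917 to 93829702, with summits 364 and 727 bases past the transcript start. Replicates 1 and 2 had theirs downstream of the gene, from 93834629 to 93834944, with summits 3811 and 3723 bp beyond its end, on 12 and 6 fragments. An autoregulatory enhancer downstream of Atoh1 is known from the mouse; whether it corresponds to this place was not tested. Peaks in all 4 MYT1L libraries without a reproducible region occurred in 1.14% of all protein-coding genes, and peaks in at least 3 of them without one, as at ATOH1 and NEUROG1, in 6.63%; among the short genes these shares were 0.396% and 4.28%. Of the genes with peaks in at least 3 libraries, 88.3% had a reproducible region and 11.7% lacked one; here 1 of 3 had one and 2 lacked it.

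OLIG1 (chromosome 21, 33070141 to 33072413) had the one reproducible region, from 33070034 to 33071341, at its lower-coordinate end and without an IgG peak. The highest fold was 5.23 in replicate 1, 5.21 in replicate 3 and 6.62 in replicate 4, or 5.69 ± 0.809 (SD, n = 3), on 17, 14 and 21 fragments; replicate 2 had no peak. Replicate 4 had a single peak of 1296 bp, the widest at the 9 genes. Replicate 1 had 2 peaks that overlapped it, with summits 27 and 1028 bp from the lower-coordinate end. The summit of replicate 3 was at 373 bp and that of replicate 4 at 956 bp, beyond the end of the replicate 3 peak. The summits of the region were spread over 1001 bp. Of all protein-coding genes 48%, and of the short ones 31.5%, had a reproducible region free of IgG peaks.

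OLIG2 (chromosome 21, 33025935 to 33029185), the neighbour of OLIG1 and a gene of ventral progenitors, had peaks in replicate 4 alone. They had folds of 3.65, 3.84 and 4.56 on 13, 14 and 13 fragments. One spanned the lower-coordinate end of the gene, one lay inside it, and one had its summit 4161 bp beyond the upper end. OLIG1 and OLIG2 are 41.0 kb apart. Between their windows there was 1 more peak, of replicate 1, from 33057614 to 33057956 at LINC00945, with a fold of 4.44. The reproducible region was thus at one gene of the pair, 40.8 kb from the other.

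**Figure D3:**
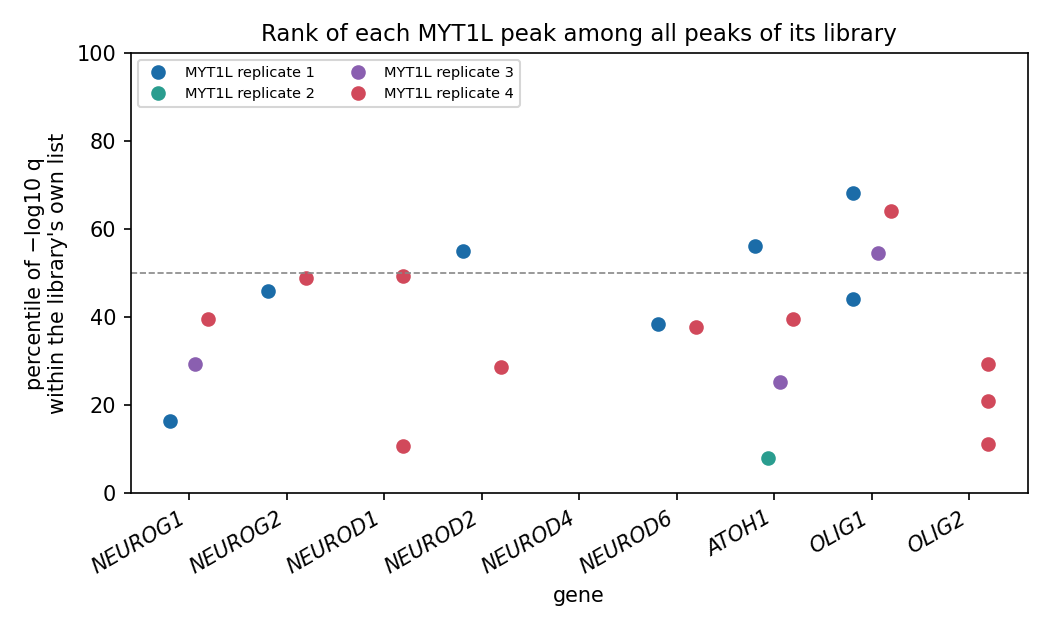
Percentile of each MYT1L peak's −log10 q among all peaks of its own library (vertical axis) by gene (horizontal axis), coloured by library; the dashed line marks the median of the list. Peaks of OLIG1 reach 68.3, and 5 of the 22 peaks lie above the line.

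The peaks at these genes were of middling to low rank in their lists. Over the 22 MYT1L peaks the fold ran from 3.65 to 6.62 with a median of 4.94, while the median fold of all peaks was between 4.92 and 5.56 in the 4 MYT1L lists. The deposited −log10 q ran from 2.81, at ATOH1 in replicate 2, to 10.9, at OLIG1 in replicate 4. Ranked by −log10 q within their own lists, the 22 peaks had a median percentile of 39.0, ranging from 8.14 to 68.3, and 5 exceeded the median of their list. Of these 5, 3 were at OLIG1, 1 at ATOH1 and 1 at NEUROD2. Pileups were 6 to 21 fragments, with a median of 13. Summits lay inside the gene for 13 peaks and outside it for 9.

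The 22 peaks formed 13 regions, of which 6 held peaks of 1 library, 6 of 2 and 1 of 3. The threshold of 3 libraries thus separated OLIG1 from NEUROG1, NEUROG2, NEUROD2, NEUROD6 and ATOH1, each with a region in 2. At the edge of the windows, the outermost peaks inside were that of OLIG2 with its summit 4161 bp beyond the gene and those of ATOH1. The nearest outside were a peak of replicate 4 at 9.86 kb from NEUROD2 and peaks of replicates 4 and 1 about 11 kb from NEUROD1, over CERKL. The surroundings were sparse in reproducible regions. The nearest one was 29.8 kb from NEUROD2, with folds of 4.89, 3.83 and 6.50 in replicates 1, 3 and 4, and 121 kb from NEUROG2, 125 kb from NEUROG1, 210 kb from NEUROD1, 327 kb from ATOH1, 565 kb from NEUROD6 and 713 kb from NEUROD4. The median distance was 125 kb over the 9 genes, 4.62 kb over all protein-coding genes and 22.5 kb over the short ones. The nearest other protein-coding gene lay between 11.2 kb (NEUROD1) and 173 kb (NEUROD6) away. That distance is not given for all protein-coding genes, and what part gene density has was not tested.

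**Figure D4:**
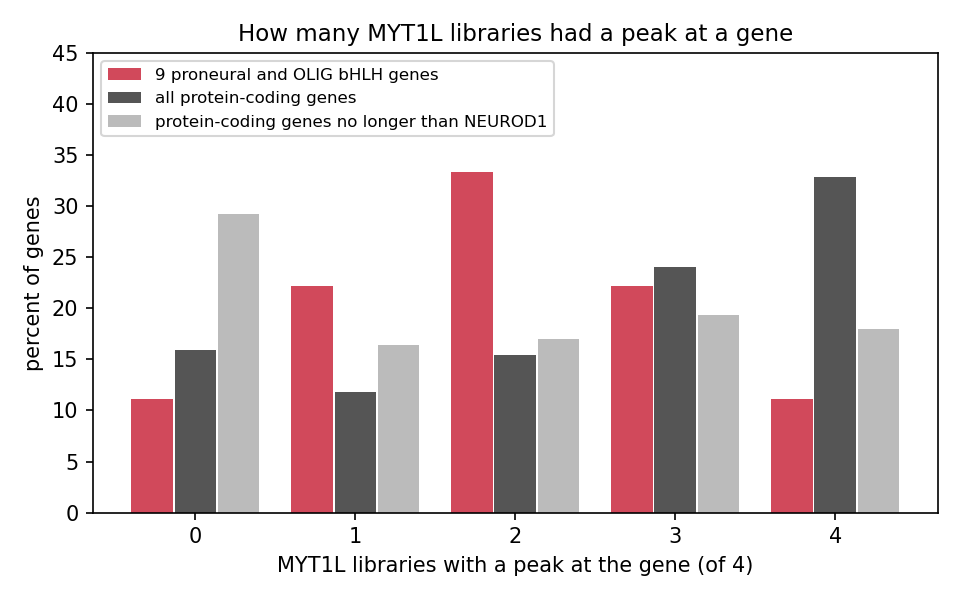
Percent of genes (vertical axis, from 0) by the number of MYT1L libraries with a peak at the gene (horizontal axis) for the 9 bHLH genes, all protein-coding genes and those no longer than NEUROD1. Of the 9 genes 1 has peaks in 4 libraries (11.1%), against 32.8% of all protein-coding genes and 18% of the short ones.

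MYT1L and IgG libraries were compared gene by gene on the base pairs under peaks in the window, by an exact permutation test over the 15 possible assignments of the antibodies. The smallest two-sided p of this design is 0.133, so no gene could pass a threshold of 0.05. ATOH1 alone reached it: its MYT1L libraries had 199, 316, 417 and 779 bp in replicates 1 to 4, or 428 ± 251 (SD, n = 4), and both IgG libraries had 0 (exact permutation p = 0.133, Benjamini-Hochberg adjusted p = 0.414). The groups did not overlap at ATOH1, as at 32.2% of all protein-coding genes. OLIG1 had the largest mean, 689 ± 552 bp (SD, n = 4) against 0 in IgG, but MYT1L replicate 2 had 0 as well (exact permutation p = 0.4, adjusted p = 0.707). NEUROG2 had 338 ± 450 bp against 129 ± 182 bp (SD, n = 2) in IgG (exact permutation p = 0.8). For the remaining genes the exact permutation p was 0.4 to 1.

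Partners, inhibitors and targets of the proneural factors were counted in the same way; where a gene had several reproducible regions, the fold is of the one with the highest mean. Of 10 other neural bHLH genes, 7 had a MYT1L peak (84.1% of all protein-coding genes) and 3 a reproducible region. Among those 3 were ATOH7 of the retina (fold 8.09 ± 1.62) and BHLHE23 (4.30 ± 0.314, SD, n = 3 each). NEUROG3, NHLH1 and NHLH2 had no peak. The E-protein genes TCF3 (6.71 ± 2.07) and TCF12 (5.70 ± 0.664, SD, n = 3 each) had a reproducible region, and TCF4 did not, so 2 of 3 did. TCF3 had a further region, of lower mean fold, with peaks of all 4 MYT1L libraries.

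Among the 4 ID genes, which encode inhibitors that sequester E-proteins, ID4 (6.0 ± 0.782) and ID2 (4.92 ± 0.525, SD, n = 4 each) had a region in all 4 MYT1L libraries, and an IgG peak was also present at ID4. ID1 and ID3 had peaks in 2 and 1 libraries. Of 10 known targets of neurogenins and NeuroD, all had a MYT1L peak, as did 84.1% of all protein-coding genes, and 5 a reproducible region. These were the Notch ligand genes DLL3 (5.90 ± 1.08, SD, n = 4) and DLL1, the neuronal regulators TBR1 (5.11 ± 0.481, SD, n = 3) and INSM1 (4.93 ± 1.38, SD, n = 3), and CBFA2T3. Of 6 oligodendrocyte lineage genes, MBP (5.89 ± 1.28) and NKX2-2 (5.09 ± 0.674, SD, n = 3 each) had one. Reproducible regions were thus present at 3 of 10, 2 of 3, 2 of 4, 5 of 10 and 2 of 6 genes of these lists and at 1 of the 9 genes, against 50.3% of all protein-coding genes; the lists differ in gene length and were not compared by a test.

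Marker genes of the cell types in question were counted as well, as occupancy and not as expression. A reproducible region was found at 2 of 6 ventral forebrain and interneuron markers (DLX2 and NKX2-1), 1 of 6 pluripotency markers (LIN28A) and 2 of 6 dorsal excitatory markers (SLC17A7 and TBR1). Of all protein-coding genes 50.3% had one. For OLIG1, 3193 other protein-coding genes (15.9%) had peaks in the same set of libraries, MYT1L replicates 1, 3 and 4. The closest in highest fold over these 3 libraries were LRRFIP1 (5.10, 5.21 and 6.76), FADS2 (5.25, 5.29 and 6.35) and NPIPA3 (5.15, 5.41 and 6.48), with Euclidean distances of 0.05, 0.06 and 0.07 on the log2 scale. NPIPA3 belongs to a family of near-identical copies, so its reads may come from another copy.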

How the data were processed

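The authors deposited 1 peak list per library (4 MYT1L, 2 IgG). Per the submitters' processing notes the peak caller was MACS2 and the build hg38; versions, thresholds, aligner and control library are not given in the sources used here. Each deposited peak has a fold enrichment (a ratio), a −log10 p, a −log10 q and a score, the truncated product of 10 and the −log10 q in 99.99% of peaks or more. These are the authors' values per peak; every list starts just above a −log10 q of 2. Titles gave groups and replicate numbers; in the MYT1L lists, peak names bear a number 1 higher than the title.

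Gene coordinates (GRCh38.p14, from 1) and promoter sequences are from RefSeq. The gene table gives no exons, and the promoter table gave the strand for 7 of the 9 genes. Pileups were solved as whole numbers from fold, (pileup + 1) / (background + 1), and the Poisson −log10 p, within 0.0002, for at least 99.8% of peaks with a −log10 p up to 200. Depth is the lowest background shared by at least 10 peaks. Thinning was binomial at the ratio of these backgrounds. Total read numbers are unknown. Peaks outside chromosomes 1 to 22, X and Y were left out. The overlap, joining and pileup steps were tested on simulated data. Python 3.11.15, numpy 2.4.6, scipy 1.17.1, pandas 2.3.3 and bedtools 2.31.1 were used.

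The 9 genes and the gene lists were chosen with earlier results of these data known. All 9 genes are named; of the lists, every gene with a reproducible region is named, except 1 that is not reported here, with a fold for up to 3 per list, and others were named after their values were seen. Similar genes are the 3 nearest to a gene with a reproducible region. No p-value was computed over the 9 genes together. Replicate numbers 1 and 2 occur in both groups but carry no stated pairing.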

Additional observations from a re-analysis of the deposited data

Results flagged for a closer look

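In 10 sets of 4 MYT1L values examined (genes with a peak per library, and base pairs under peaks for each of the 9 genes), 2 had 1 library far from the other 3. At NEUROD1, MYT1L replicate 4 had 445 bp under peaks and the other 3 MYT1L libraries had 0. At OLIG2, MYT1L replicate 4 had 821 bp and the other 3 had 0. Any gene with peaks in 1 MYT1L library alone is flagged whatever the value, since the other 3 are then 0. Peaks in exactly 1 MYT1L library were present at 11.8% of all protein-coding genes and 16.4% of the short ones. The 2 sets are also not independent, as they share the library with the most peaks.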

How the results depend on the processing

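All alternatives were planned. OLIG1 was the gene with a reproducible region under no flank, 2 kb or 10 kb on either side, the summit inside the window, a −log10 q minimum of 5, the 12310 top peaks of each MYT1L library, at least 50% of the shorter peak shared, and IgG regions left out. Of all protein-coding genes, 35.9% had one with the top peaks and 48% with IgG regions left out. Shares under the rest of these settings are not given. The count of 1 rose to 6 when 2 of 4 libraries sufficed (67.3% of all protein-coding genes, 50.2% of the short ones). It fell to 0 when all 4 were required (27.1% and 15.5%). When 1 MYT1L or IgG library was left out it ranged from 1 to 6. Each fit without a MYT1L library asked for 2 of the other 3. This gave 2 genes without replicate 1, 6 without replicate 2, 5 without replicate 3 and 3 without replicate 4. The shares were 57.6%, 65.3%, 62% and 51.4% of all protein-coding genes, and 40.1%, 48.1%, 44.9% and 34.1% of the short ones. The 8 genes with a MYT1L peak became 2, ATOH1 and OLIG1, with the 12310 top peaks of each MYT1L library, and other settings gave 6 to 8. The share of all protein-coding genes with a MYT1L peak is not given for these top peaks or the other settings. The fall from 8 to 2 therefore cannot be set against that of other genes. A reproducible region was then present at 35.9% of all protein-coding genes and 21.6% of the short ones, against 50.3% and 33.3% with all peaks. The 1 gene with an IgG peak became 0 at the −log10 q minimum of 5, and ranged from 0 to 1 when 1 library was left out, with 0 without IgG replicate 1. The difference of 4 genes per library (MYT1L minus IgG) fell to 0.750 with these top peaks, equal in number among MYT1L libraries only (IgG kept 976 and 998), and otherwise stayed between 2.50 and 5.17. With the replicate block, over numbers 1 and 2, it was 3. Per gene, the number of MYT1L libraries changed by over 1.5 times for 7 of 9 genes with these top peaks, for 6 at the −log10 q minimum of 5, for ATOH1 (4 to 2) and NEUROD6 (2 to 0) with no flank, and for ATOH1 (4 to 2) with 2 kb. Libraries differ in depth, and what part that has in the counts was not tested.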
